A study of Mus musculus with 16 samples.

Results

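The 10 transcripts described here, S100a8, S100a9, Ngp, Camp, Ltf, Lcn2, Retnlg, Csf3r, Cxcr2 and Mmp8, were taken by symbol from the gene column of the deposited cortex tables, and each was found among the 24421 genes listed there. All 10 had reads and entered every test. The tissue was somatosensory cortex of male C57BL/6 wild-type (WT) mice, written C57/BL6J in the methods of the study, and of male AcPb-/- mice (AcPbKO), which lack the neuron-specific form of the IL1 receptor accessory protein. All animals were homozygotic offspring aged 2-3 months from lines kept in house for 5-7 generations. Sleep disruption (SD) was by gentle handling from ZT20 to ZT4, and undisturbed controls (CTL) were collected at the same ZT4. The 4 groups were CTL-WT (libraries 01, 02 and 03), SD-WT (01, 02 and 04), CTL-AcPbKO (03, 04 and 05) and SD-AcPbKO (02, 03 and 04), with 3 libraries each. The labels list 4 more samples, which are not analysed here.

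Neutrophils are short-lived white blood cells made in bone marrow. While they mature they fill several kinds of granules with antimicrobial proteins, and the transcripts of these proteins are most abundant in the marrow and decline once the cells circulate. Healthy brain tissue holds few neutrophils, most of them in vessels and in the meninges and choroid plexus, so their transcripts are rare in bulk cortex. Lcn2 differs from the rest of the group in that endothelial cells and reactive astrocytes also make it during inflammation, and Csf3r is also transcribed in microglia.

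In the GENCODE M21 annotation of GRCm38, the S100a8 gene (chr3:90668978-90670035, plus strand) and the S100a9 gene (chr3:90692632-90695721, minus strand) lie 22.6 kb apart. Their products form the heterodimer calprotectin, which binds calcium and metals. The genes Camp (chr9:109847379-109849617, minus strand), Ngp (chr9:110419747-110423012, plus strand) and Ltf (chr9:111019271-111042767, plus strand) share a stretch of 1.195 Mb on chromosome 9, and Mmp8 lies on the same chromosome (chr9:7558456-7568485, plus strand). Lcn2 is on chromosome 2 (chr2:32384633-32388252, minus strand), Retnlg on 16 (chr16:48872621-48874496, plus strand), Csf3r on 4 (chr4:126024550-126044440, plus strand) and Cxcr2 on 1 (chr1:74153989-74161246, plus strand). The exons of these genes did not overlap those of any other annotated gene. Of the stretches of 100 bases in the exons of Csf3r, 0.376% were also present in another gene.

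The sequences before the RefSeq start sites of Lcn2, S100a8, S100a9 and Ngp are shown because these 4 transcripts reached the highest levels in single libraries apart from Csf3r. Each is the strand of the gene, 5′ to 3′, from 250 bases before the RefSeq start (GRCm38.p6), shortened where other annotated transcripts begin upstream. Capitals mark matches on either strand to TTNNGNAA, a motif of the C/EBP factors that act in neutrophil maturation. The stretches are chr2:32387798-32387989 (minus strand), chr3:90668821-90668977 (plus), chr3:90695722-90695971 (minus) and chr9:110419558-110419746 (plus). The Lcn2 stretch lies before its RefSeq start but inside the longer Lcn2 gene of GENCODE, whereas the other 3 lie outside their GENCODE genes.
Lcn2: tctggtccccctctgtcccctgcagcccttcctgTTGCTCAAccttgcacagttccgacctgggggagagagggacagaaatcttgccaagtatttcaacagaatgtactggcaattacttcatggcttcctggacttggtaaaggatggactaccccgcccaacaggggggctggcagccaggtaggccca
S100a8: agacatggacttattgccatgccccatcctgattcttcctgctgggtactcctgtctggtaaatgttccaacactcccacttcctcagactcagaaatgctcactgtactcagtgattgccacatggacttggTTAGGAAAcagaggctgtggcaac
S100a9: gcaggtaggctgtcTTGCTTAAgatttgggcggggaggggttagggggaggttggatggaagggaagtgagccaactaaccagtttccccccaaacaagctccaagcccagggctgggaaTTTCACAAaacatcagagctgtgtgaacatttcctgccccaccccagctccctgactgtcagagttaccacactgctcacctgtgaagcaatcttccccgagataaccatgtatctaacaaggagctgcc
Ngp: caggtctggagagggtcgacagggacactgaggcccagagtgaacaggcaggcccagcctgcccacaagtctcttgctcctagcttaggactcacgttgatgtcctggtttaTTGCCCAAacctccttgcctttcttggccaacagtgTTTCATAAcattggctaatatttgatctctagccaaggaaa
In the full windows from 250 bases before to 50 after the start, TTNNGNAA was present in 7 of the 10 genes (not in Csf3r, Camp or Cxcr2), and it was present in 40.7% of the 32544 RefSeq windows of this length. GAGGAAG, a PU.1-type motif, was in 4 of the 10 and in 13.4% of all windows. TATAAA was in 3 of the 10 and in 13.6% of all windows. An NF-kappa-B-type motif (in 1.61% of windows) and a glucocorticoid receptor palindrome (in 0.476%) had 0 matches in the 10 windows. All motifs were searched on both strands. These are matches of letters only.

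The libraries held 26504840 to 41615582 reads on genes in the CTL groups and 58770286 to 71857505 in the SD groups, so depth differed with SD. The deposited values are read counts divided by a size factor per library, and the normalized counts given per library are on a common scale for all 12. Most of the 10 transcripts were close to the limit of detection: outside Csf3r, which had 189 to 936 reads, 9 genes had between 0 and 467 reads per library. Il1rap, which codes for the accessory protein in all its forms, had 31.6 to 42.0 CPM (reads scaled to the total of each library) in every library. A deletion of 1 isoform is not visible in a value per gene, and this value does not check the genotype. Several facts of the whole series bear on these genes. Xist was present in 4 CTL libraries (CTL-WT 02 and 03, CTL-AcPbKO 04 and 05), which had at least 25352 Xist reads and at most 2 Y-linked reads although labelled male, against at most 13 Xist reads in the other 8, so SD and the presence of Xist are partly confounded. The library SD-AcPbKO 04 held 16186 normalized counts of Ttr, the transthyretin transcript typical of choroid plexus, against 10.6 to 283 in the other 11 libraries. The cortical neuron markers were present at 470979 to 589094 summed normalized counts in all 12.

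Of 31 other neutrophil genes in the tables, 18 had reads in every library and 6 had 0 reads in 6 or more libraries, and of 12 azurophil granule and granulopoiesis genes 6 and 5. Elane and Ctsg, serine proteases of azurophil granules, had 0 reads in 10 of 12 libraries each, Stfa1 had 0 in all 12, and Cd177, a neutrophil surface protein, had 0 to 4.44 normalized counts outside SD-AcPbKO 04. Prtn3, a further azurophil serine protease, had 24 to 51 reads in every library, and Mmp9, a gelatinase of granules and of other cells, had 46 to 178. Ly6g was not analysed here. In bulk tissue fewer cells of a type and less RNA per cell cannot be told apart.

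Undisturbed cortex held little of these transcripts. In reads per kilobase of exon, scaled to the total of each library (RPKM), Csf3r, the receptor of granulocyte colony-stimulating factor, was the most abundant in CTL-WT at 2.32 ± 0.0694 (standard deviation, n = 3). The next level was S100a9 at 0.507 ± 0.158, followed by S100a8 at 0.192 ± 0.0162. Camp, Ngp and Retnlg lay between 0.0706 and 0.0998 on this scale, and their standard deviations overlapped. Lcn2 was at 0.0472 ± 0.0132, and Mmp8, Ltf and Cxcr2, the neutrophil chemokine receptor, were at 0.0206, 0.0154 and 0.00584. From S100a8 downwards, the ranges of mean ± standard deviation of neighbours in this order overlapped.

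**Figure D1:**
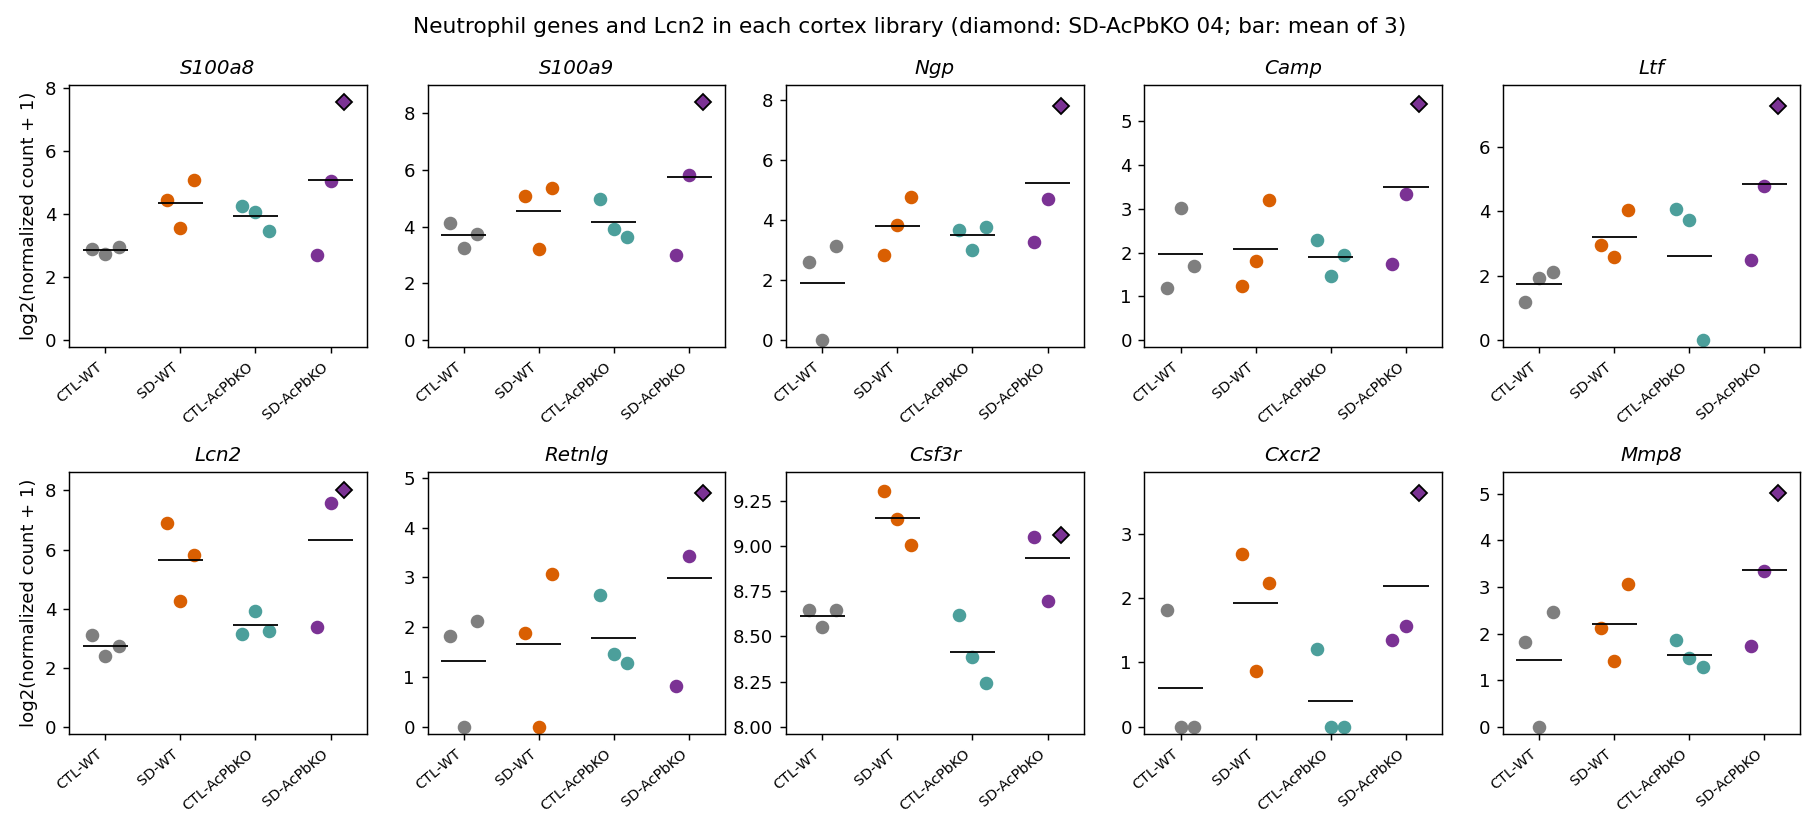
Level of each of the 10 transcripts in each library as log2(normalized count + 1), by group, with 1 point per library, a bar at the mean of 3 and a diamond for SD-AcPbKO 04. All axes start at 0 except that of Csf3r, which starts at 8. The 3 SD-WT points of Lcn2 lie above the 3 CTL-WT points, the 6 SD points of Csf3r lie above the 6 CTL points, and SD-AcPbKO 04 is the highest library for every gene but Csf3r.

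The first comparison asked how the group changed with sleep loss in WT mice. Lcn2, an iron-siderophore binding protein of specific granules and of inflamed endothelium and astrocytes, showed the greatest difference of the 10, and S100a8, Ltf and Csf3r were also higher after SD. None passed the test as lower. Camp, Mmp8 and Retnlg, a resistin-like secreted protein, differed in mean normalized count by less than the standard deviation of either group. S100a9 differed by less than the standard deviation of SD-WT.

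Lcn2 had 7.60, 4.23 and 5.59 normalized counts in CTL-WT 01, 02 and 03 (6, 3 and 5 reads) and 119, 18.3 and 54.8 in SD-WT 01, 02 and 04 (176, 22 and 74 reads). The groups did not overlap, but the SD-WT libraries differed among themselves, with SD-WT 01 well above SD-WT 02. The log2 fold change was 2.93 ± 0.55 (SE), a 7.60-fold difference on the scale of log2(normalized count + 1), with a limma adjusted p of 0.00427 (Benjamini-Hochberg over all genes tested, called below 0.05). The call was kept when any of the 6 libraries was left out (2.30 to 3.62, limma adjusted p 0.00248 to 0.0244). In a fit of all 12 libraries with a term for the presence of Xist the estimate was 2.88 and its limma adjusted p 0.118.

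S100a8 had 6.33, 5.63 and 6.71 normalized counts in CTL-WT and 20.9, 10.8 and 32.6 in SD-WT. All 3 SD-WT libraries lay above the controls, on 4 to 6 reads per control library. The log2 fold change was 1.51 ± 0.38 (limma adjusted p = 0.0163), and the call was lost without CTL-WT 02 (limma adjusted p = 0.0584) or SD-WT 01 (0.0651). Its partner S100a9 had 16.5, 8.45 and 12.3 in CTL-WT and 32.3, 8.30 and 39.99 in SD-WT. SD-WT 02 was as low as the controls, and the log2 fold change of S100a9, 0.85 ± 0.51, did not pass the test (limma adjusted p = 0.257), although it did without SD-WT 02 (1.51, limma adjusted p = 0.0231).

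Ltf codes for lactoferrin, an iron-binding protein of specific granules. It had 1.27, 2.82 and 3.35 normalized counts in CTL-WT and 6.74, 4.98 and 15.6 in SD-WT, and the groups did not overlap. The log2 fold change was 1.46 ± 0.45 (limma adjusted p = 0.0389). This call rested on 1 to 21 reads per library and was lost when CTL-WT 01, CTL-WT 02, SD-WT 01 or SD-WT 04 was left out (limma adjusted p 0.111, 0.0811, 0.0849 and 0.127).

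Csf3r had 400.0, 375 and 399 normalized counts in CTL-WT and 631, 568 and 512 in SD-WT. All SD-WT libraries were above all controls, and the spread within a group was small against the difference. The log2 fold change was 0.54 ± 0.10 (limma adjusted p = 0.00376), and it held without any 1 library (0.46 to 0.61, limma adjusted p up to 0.0246). With the term for Xist, Csf3r was at 0.42 (limma adjusted p = 0.0564), S100a8 at 1.33 (0.431) and Ltf at 1.002 (0.676), so that 0 of the 4 calls in WT held. Csf3r is also a microglial transcript, and of 10 microglia markers tested in the same comparison 0 were higher and 1 was lower. The part of microglia in the Csf3r difference was not tested.

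Of the remaining members, Ngp, a granule protein of the cathelicidin-like family, had 5.06, 0 and 7.82 normalized counts in CTL-WT and 6.07, 13.3 and 25.9 in SD-WT. The groups overlapped, and the log2 fold change of 1.90 ± 0.76 did not pass the test (limma adjusted p = 0.0954) unless CTL-WT 03 was left out (2.52, limma adjusted p = 0.0433). Cxcr2 had 2 reads over the 3 CTL-WT libraries and 14 over the 3 SD-WT libraries, a ratio per total reads of 4.02 with an exact 95% counting interval of 0.924 to 36.5. This interval, like those of Cxcr2 below, pools the reads of a group and leaves out the spread between libraries. The log2 fold change of Cxcr2, 1.34 ± 0.63, did not pass (limma adjusted p = 0.151), but did without CTL-WT 01 (1.96, limma adjusted p = 0.0453). Mmp8, the neutrophil collagenase, was at 0 to 4.47 in CTL-WT and 1.66 to 7.41 in SD-WT (log2 fold change 0.79 ± 0.65). Camp, the cathelicidin antimicrobial peptide, was at 1.27 to 7.04 and 1.35 to 8.15 (0.12 ± 0.60), and Retnlg at 0 to 3.35 and 0 to 7.41 (0.34 ± 0.79). The values of these 3 genes overlapped between the groups, with limma adjusted p from 0.42 to 0.906.

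In all, 4 of 10 members were called, all higher in SD-WT. Of the 20417 genes tested in this comparison 25.4% were called in either direction and 13.2% higher. The 4 called members were also the 4 whose groups did not overlap, a pattern seen in 20.6% of genes. The median log2 fold change was 1.09 over the members and -0.00389 over all genes tested.

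**Figure D2:**
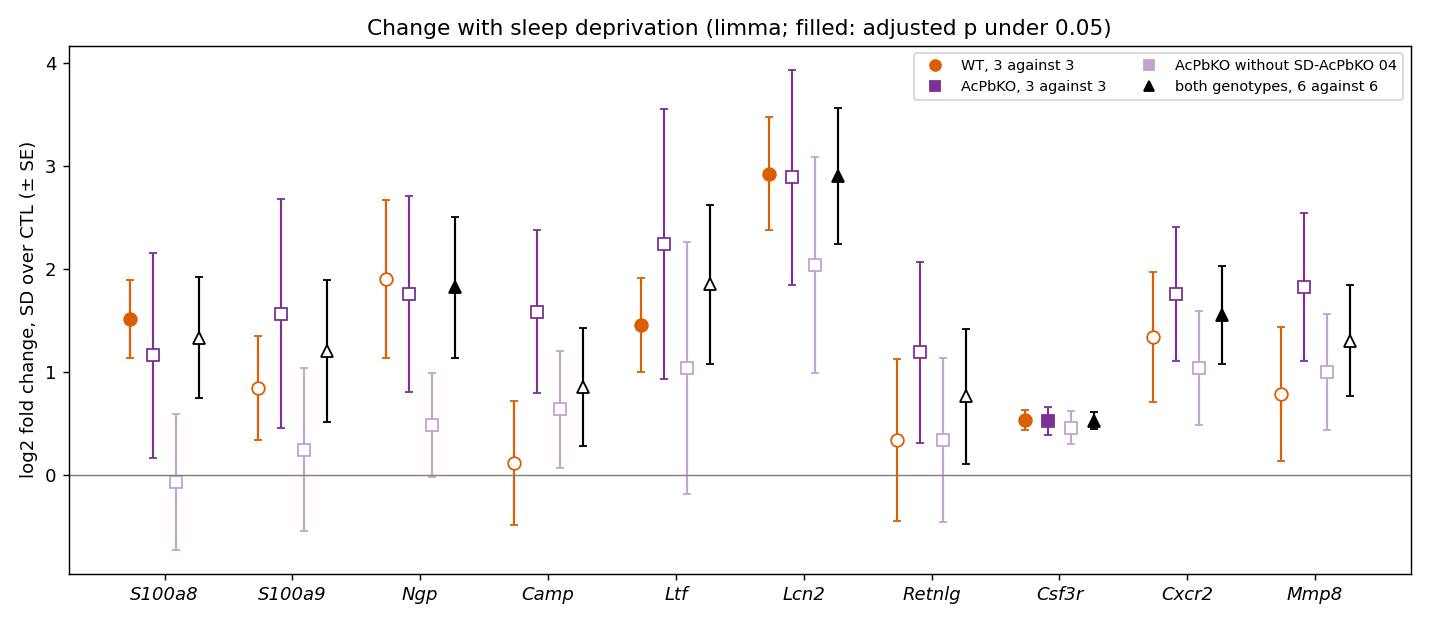
Log2 fold change of SD over CTL with its standard error (y axis) for each of the 10 transcripts (x axis) in WT, in AcPbKO, in AcPbKO without the library SD-AcPbKO 04 and with both genotypes pooled. Filled symbols passed a limma adjusted p of 0.05. Lcn2 is between 2.04 and 2.93 in all 4 fits, whereas S100a8 in AcPbKO goes from 1.16 to -0.06 without SD-AcPbKO 04.

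The same comparison in AcPbKO mice gave wide differences between the SD libraries. SD-AcPbKO 04 held the highest values of 9 of the 10 transcripts in the series, SD-AcPbKO 03 was intermediate, and SD-AcPbKO 02 was at the level of the controls for most of them. Csf3r was the only member past the threshold. It had 391, 334 and 301 normalized counts in CTL-AcPbKO and 529, 414 and 532 in SD-AcPbKO, with no overlap. Its log2 fold change was 0.52 ± 0.14 (limma adjusted p = 0.0227), and the call was lost without CTL-AcPbKO 04, CTL-AcPbKO 05, SD-AcPbKO 02 or SD-AcPbKO 04 (limma adjusted p 0.0744, 0.068, 0.0985 and 0.0857) or with the term for Xist (0.40, limma adjusted p = 0.0562). Of 10 microglia markers tested, 0 were higher and 4 were lower in this comparison, and the part of microglia in the Csf3r difference was not tested.

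Lcn2 had 7.83, 14.1 and 8.49 normalized counts in CTL-AcPbKO and 9.29, 191 and 259 in SD-AcPbKO. Libraries 03 and 04 were far above every control, while SD-AcPbKO 02 lay among the controls. The log2 fold change of 2.89 ± 1.04 was of the size found in WT, and it did not pass the test (limma adjusted p = 0.0717). It was called by edgeR (3.95, adjusted p = 0.0159) and by DESeq2 (3.92, adjusted p = 0.00379) on the recovered reads. Leaving out SD-AcPbKO 02 gave 4.37 (limma adjusted p = 0.00591), and leaving out SD-AcPbKO 04 gave 2.04 (limma adjusted p = 0.22).

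The neutrophil granule transcripts followed the order of the 3 SD libraries more steeply. S100a8 had 18.3, 15.9 and 9.90 normalized counts in CTL-AcPbKO and 5.42, 32.1 and 185 in SD-AcPbKO. S100a9 had 30.0, 14.1 and 11.3 in CTL-AcPbKO against 6.97, 55.6 and 331 with SD. For both, SD-AcPbKO 02 was below every control and SD-AcPbKO 03 and 04 were above. Ngp was at 11.7, 7.06 and 12.7 in CTL-AcPbKO and at 8.52, 24.9 and 219 in SD-AcPbKO. Ltf was at 15.7, 12.4 and 0 undisturbed and at 4.65, 26.8 and 153 in SD-AcPbKO. The groups overlapped for both, since SD-AcPbKO 02 lay among the controls. The log2 fold changes were 1.16 ± 0.99 for S100a8, 1.57 ± 1.11 for S100a9, 1.75 ± 0.95 for Ngp and 2.24 ± 1.31 for Ltf, with limma adjusted p from 0.213 to 0.437.

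The less abundant members had the same order. Camp was at 1.77 to 3.91 normalized counts in CTL-AcPbKO and at 2.32, 9.16 and 41.1 in SD-AcPbKO (log2 fold change 1.59 ± 0.79). Mmp8 was at 1.41 to 2.61 and at 2.32, 9.16 and 31.2 (1.83 ± 0.72). Retnlg was at 1.41 to 5.22 and at 0.774, 9.82 and 24.8 (1.19 ± 0.87). SD-AcPbKO 04 again held the highest values, and these 3 genes did not pass the test (limma adjusted p 0.093 to 0.363). Cxcr2 had 1 read over the 3 control libraries and 2, 3 and 16 reads in SD-AcPbKO 02, 03 and 04, a ratio per total reads of 9.89 with an exact 95% counting interval of 1.59 to 409. The groups of Cxcr2 did not overlap, and the log2 fold change of 1.76 ± 0.65 did not pass (limma adjusted p = 0.0776).

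In AcPbKO 1 of 10 members was called, higher after SD, beside 27.4% of the 20574 genes tested in either direction and 14.1% higher. Csf3r and Cxcr2 did not overlap between the groups, a pattern of 21.5% of genes. The median log2 fold change was 1.67 over the members and 0.0138 over all genes. Without SD-AcPbKO 04 the median over the members was 0.56 and 0 were called by limma, with Csf3r alone at an unadjusted p under 0.05 (0.021). Without SD-AcPbKO 02, S100a9, Camp, Lcn2, Retnlg and Mmp8 were called (limma adjusted p 0.0463, 0.0464, 0.00591, 0.0454 and 0.0261).

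The library SD-AcPbKO 04 alone held 58.0% of all reads of S100a8 over the 12 libraries, 62.9% of S100a9, 68.4% of Ngp, 55.2% of Camp and 66.4% of Ltf. Its level was 4.49 to 8.43 times that of the next highest library for these 5 genes. For Lcn2 the share was 37.4% and the ratio to the next library 1.36, and for Csf3r the share was 12.5%. Of 29 other neutrophil genes with reads, 13 were highest and 2 lowest in this library. Of 12 azurophil granule and granulopoiesis genes 6 were highest and 0 lowest. The share of all genes highest in this library was not counted. Some of those highest had few reads there, such as Wfdc21 with 6 and Clec4e with 4. The summed levels of both lists lay inside the ranges of the other 11 libraries (3432 against 3101 to 3740, and 899 against 687 to 1035 normalized counts). Both sums were mostly reads of genes abundant in every library and say little of the rarer genes. In SD-AcPbKO 04, Gca and Itgam had 1886 and 1574 of the 4837 reads of the first sum. Chil1 and Srgn had 455 and 437 of the 1267 reads of the second. Mpo, the myeloperoxidase of azurophil granules, had 42.6 normalized counts against 1.12 to 14.1 in the other 11 libraries. Chil3, a chitinase-like protein of neutrophils and monocytes, had 95.8 against 1.66 to 14.8, and Cd177 had 29.8 against 0 to 4.44, whereas Prtn3 had 35.5 against 19.9 to 55.7 and Ltb4r1, a leukotriene receptor, 4.26 against 6.54 to 22.8. All 10 choroid plexus markers were highest in this library: beside Ttr, Otx2 had 88.0 against 0 to 6.52 and Kcne2 182 against 2.83 to 19.4. The summed level of the 10 choroid plexus markers was 39143 in SD-AcPbKO 04 and 10472 to 13620 in the other 11 libraries. Most of this sum in the other 11 was Enpp2, at 9809 to 13142 there and 20591 in SD-AcPbKO 04. The summed level of 6 measured red cell markers was 14271 against 11374 to 13330. The 4 globin genes listed were at 0 in every library. For 12 platelet markers the sum was 862 against 904 to 1187. The part of choroid plexus tissue in the granule transcripts of this library was not tested. In SD-AcPbKO 03 S100a8, S100a9, Ngp, Camp and Ltf summed to 149 normalized counts against 23.9 to 79.6 in the 6 controls, with Ttr at 93.6, inside the range of the controls.

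**Figure D3:**
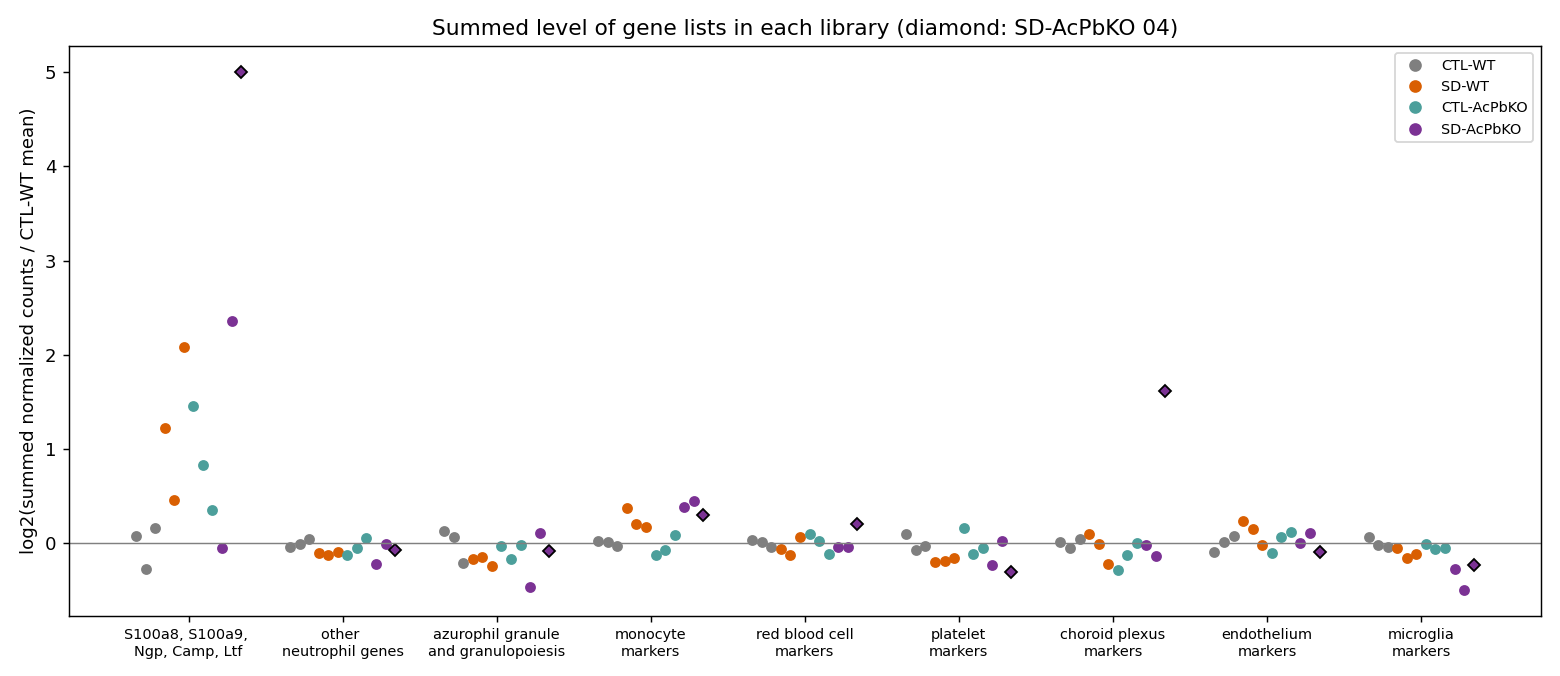
Summed normalized counts of gene lists in each library as log2 ratio to the CTL-WT mean (y axis), with 1 point per library and a diamond for SD-AcPbKO 04. The sum of S100a8, S100a9, Ngp, Camp and Ltf is 929 in SD-AcPbKO 04 and at most 149 elsewhere, and the choroid plexus sum is high in SD-AcPbKO 04 alone, whereas the platelet, endothelium and microglia sums of this library lie within or near those of the others.

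With both genotypes pooled, 6 SD libraries were set against 6 controls. Lcn2, Csf3r, Ngp and Cxcr2 rose after SD. The 6 Lcn2 values after SD ran from 9.29 to 259 normalized counts and the 6 control values from 4.23 to 14.1, with 5 of 6 SD libraries above every control. Its log2 fold change was 2.90 ± 0.66 (limma adjusted p = 0.00255), and it stayed past the threshold when any of the 12 libraries was left out (2.53 to 3.56, limma adjusted p up to 0.0074). Csf3r had a log2 fold change of 0.53 ± 0.08 (limma adjusted p = 0.000162) and was the only member in which all 6 SD libraries lay above all 6 controls. It was called under all 22 alternatives, with estimates from 0.39 to 0.58.

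Ngp had a log2 fold change of 1.82 ± 0.68 (limma adjusted p = 0.0448). The call was lost when CTL-WT 02, SD-WT 02, SD-WT 04, CTL-AcPbKO 03, CTL-AcPbKO 04, CTL-AcPbKO 05 or SD-AcPbKO 04 was left out (limma adjusted p 0.0562 to 0.107). Cxcr2 had 35 reads after SD and 3 in the controls, a ratio per total reads of 6.09 with an exact 95% counting interval of 1.92 to 30.9. Of the 35 reads, 16 were in SD-AcPbKO 04, and the interval covers counting error only. The log2 fold change of Cxcr2 was 1.55 ± 0.48 (limma adjusted p = 0.0171), and it held without any 1 library (limma adjusted p up to 0.042). The estimates of the other members were 1.33 ± 0.58 for S100a8, 1.21 ± 0.69 for S100a9, 1.85 ± 0.77 for Ltf, 1.31 ± 0.54 for Mmp8, 0.85 ± 0.57 for Camp and 0.77 ± 0.66 for Retnlg, with limma adjusted p from 0.0665 to 0.39. S100a8, S100a9, Ltf and Mmp8 passed without SD-AcPbKO 02 (limma adjusted p 0.00278, 0.0236, 0.0226 and 0.0283).

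In the pooled comparison 4 of 10 members were called, all higher, beside 42.1% of the 20978 genes in either direction and 21.4% higher. Only Csf3r did not overlap between SD and CTL, beside 11.6% of genes. The median log2 fold change was 1.32 over the members and 0.00288 over all genes. Without SD-AcPbKO 04 it was 0.85 over the members and 3 of 10 were called. With the term for Xist, Lcn2 kept its size and its call (2.87, limma adjusted p = 0.0349), as did Csf3r (0.41, limma adjusted p = 0.0127), whereas Ngp (1.39, limma adjusted p = 0.313) and Cxcr2 (0.54, limma adjusted p = 0.521) did not pass. In the 8 libraries without Xist reads alone, 2 controls against 6 SD libraries, Lcn2 was at 2.87 (limma adjusted p = 0.0637) and Csf3r at 0.41 (limma adjusted p = 0.0268). After thinning all libraries to the smallest total the pooled log2 fold change was 2.78 for Lcn2 (limma adjusted p = 0.00232) and 0.53 for Csf3r (limma adjusted p = 0.000252). Ngp and Cxcr2 did not pass after thinning.

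Lcn2 took a larger share beside S100a8 and S100a9 in SD libraries than in controls. Of the summed reads of Lcn2, S100a8 and S100a9, Lcn2 made up 13.95% to 32.0% in the 6 control libraries. In SD-WT 01, 02 and 04 its share was 69.0% (95% Wilson interval 63.1 to 74.4), 48.9% (35.0 to 63.0) and 43.0% (35.9 to 50.5). In SD-AcPbKO 02, 03 and 04 it was 42.9% (26.5 to 60.9), 68.5% (64.0 to 72.8) and 33.4% (30.7 to 36.2). Every SD library was above every control, though the lowest SD share, in the library richest in granule transcripts, was close to the highest control share. The intervals cover counting error only, and those of the controls reached up to 51.6%. S100a8, by contrast, was 27.8% to 56.5% of the reads of the S100a8 and S100a9 pair over the 12 libraries, with overlapping intervals in CTL and SD.

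**Figure D4:**
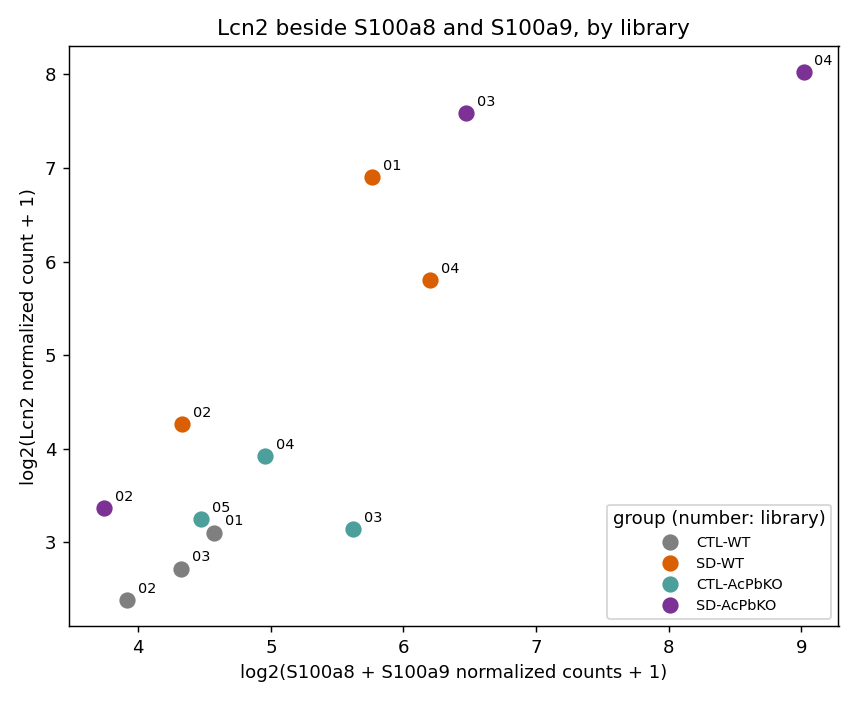
Lcn2 (y axis) beside the sum of S100a8 and S100a9 (x axis) in each library, both as log2(normalized count + 1), coloured by group and numbered by library. SD-AcPbKO 04 is the farthest to the right at an Lcn2 level of 259 normalized counts, SD-AcPbKO 03 reaches 191 at a much lower S100 sum, and the 6 controls stay at or below 14.1.

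The genotype comparisons set AcPbKO against WT cortex, undisturbed and after SD. In undisturbed cortex, S100a8 had 6.33, 5.63 and 6.71 normalized counts in WT and 18.3, 15.9 and 9.90 in AcPbKO, and Lcn2 had 7.60, 4.23 and 5.59 in WT and 7.83, 14.1 and 8.49 in AcPbKO. In both genes every AcPbKO library was above every WT library. These were 2 of 10 members, beside 7.45% of all genes. The log2 fold changes, 1.04 ± 0.33 for S100a8 and 0.67 ± 0.36 for Lcn2, did not pass the test (limma adjusted p = 0.443 and 0.65). 0 of 10 members were called by limma, beside 0.0197% of 20273 genes, 1 had an unadjusted p under 0.05, and edgeR and DESeq2 also called 0.

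After SD, 0 of 10 members were called between genotypes by limma, edgeR or DESeq2, beside 0.0145% of 20621 genes by limma (0.00485% higher and 0.0097% lower in AcPbKO), and 0 had an unadjusted p under 0.05. Values overlapped between SD-WT and SD-AcPbKO for all 10, beside 5.33% of genes with every AcPbKO library higher, and for most of them SD-AcPbKO 02 was low and SD-AcPbKO 04 high. The log2 fold changes of AcPbKO over WT were 0.72 ± 0.99 for S100a8, 1.19 ± 1.12 for S100a9 and 0.66 ± 1.10 for Lcn2, and without SD-AcPbKO 04 they were -0.51, -0.15 and -0.20. The SD effect in AcPbKO minus that in WT was -0.03 ± 1.37 for Lcn2, -0.35 ± 1.21 for S100a8 and -0.02 ± 0.17 for Csf3r on the log2 scale. For this difference 0 of 10 members and 0.0% of 20978 genes were called by limma, 0 members had an unadjusted p under 0.05, and edgeR and DESeq2 called 0 members. With standard errors of this size, the test could not tell equal from unequal responses of Lcn2 or S100a8.

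SD-AcPbKO set against CTL-WT combines both factors and shares its controls with the WT comparison. Lcn2 (log2 fold change 3.60 ± 0.99, limma adjusted p = 0.0229), Ltf (3.13 ± 0.94, limma adjusted p = 0.0338) and Ngp (3.36 ± 1.10, limma adjusted p = 0.0458) were called, 3 of 10 members beside 27.7% of 20560 genes in either direction and 14.1% higher. These 3 genes and Csf3r did not overlap between the groups, beside 21.5% of genes. Without SD-AcPbKO 04 the 3 estimates were 2.75, 1.92 and 2.09 and none of them passed (limma adjusted p 0.077, 0.071 and 0.127). Leaving out CTL-WT 02 or SD-AcPbKO 03 also ended all 3 calls, CTL-WT 03 ended those of Lcn2 and Ltf, and CTL-WT 01 those of Ltf and Ngp.

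Further genes of the neutrophil programme were followed as lists. Their counts are to be read against all genes tested, of which 13.2% were higher and 12.2% lower in WT and 14.1% and 13.3% in AcPbKO. Of 29 other neutrophil genes tested in WT, 1 was higher after SD and 1 lower, with a median log2 fold change of 0.05. The higher gene was Pglyrp1, a peptidoglycan recognition protein stored in neutrophil granules, at 164 to 190.1 normalized counts in CTL-WT and 303 to 312 in SD-WT (0.76 ± 0.11, limma adjusted p = 0.00141). It also rose in AcPbKO (0.83 ± 0.18, limma adjusted p = 0.00992). The lower gene was Gca, a calcium-binding protein of granulocytes and other cells (-0.28 ± 0.09, limma adjusted p = 0.0423). In AcPbKO 3 of 28 were higher and 2 lower. Beside Pglyrp1 these were the protease inhibitor Slpi (1.83 ± 0.53, limma adjusted p = 0.0332) and haptoglobin, Hp (1.77 ± 0.53, limma adjusted p = 0.0388), and the lower ones the membrane protease Mmp25 (-1.35 ± 0.32, limma adjusted p = 0.0148) and the leukotriene receptor Ltb4r1 (-1.18 ± 0.31, limma adjusted p = 0.0228). Slpi had 0 reads in every CTL-AcPbKO library and 1, 4 and 9 in SD-AcPbKO 02, 03 and 04. Without SD-AcPbKO 04, 1 gene of this list was higher and 1 lower.

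Of 11 azurophil granule and granulopoiesis genes tested in WT, 1 was higher and 1 lower, with a median of -0.10. The higher gene was Srgn, serglycin, the proteoglycan of secretory granules (0.31 ± 0.10, limma adjusted p = 0.0368), and the lower Serpinb1a, an inhibitor of neutrophil proteases (-1.23 ± 0.18, limma adjusted p = 0.00138). In AcPbKO 0 of 12 were called. Of 19 genes for neutrophil recruitment and growth factors, 1 was higher in each genotype, Selplg, the selectin ligand of leukocytes (0.53 ± 0.10 in WT, limma adjusted p = 0.00387, and 0.33 ± 0.10 in AcPbKO, limma adjusted p = 0.0332). The chemokines and cytokines that draw neutrophils were near 0: Cxcl1 had 0 to 10 reads, Cxcl2 0 to 1, Csf3 0 to 5 and Il6 0 to 5 in any library, and Cxcl3 and Il17a had 0 in all 12. Csf2, a growth factor of granulocytes and macrophages with 0 to 3 reads per library, was called in the pooled comparison (0.90 ± 0.31, limma adjusted p = 0.0313) and in SD-AcPbKO against CTL-WT (1.27 ± 0.41, limma adjusted p = 0.0451).

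The list of Lcn2 receptors and of genes of reactive astrocytes and endothelium had 24 tested genes, of which 7 were higher and 2 lower in WT and 4 higher and 2 lower in AcPbKO. The lower genes were the same in both genotypes. Slc22a17, a cell-surface receptor of Lcn2, fell from 24511 to 26722 normalized counts in CTL-WT to 16792 to 20227 in SD-WT (-0.49 ± 0.08, limma adjusted p = 0.00197), and in AcPbKO it changed by -0.64 ± 0.06 (limma adjusted p = 0.000667). Cebpb, a C/EBP factor, changed by -1.09 ± 0.15 in WT (limma adjusted p = 0.00112) and by -1.07 ± 0.15 in AcPbKO (limma adjusted p = 0.00177). Among the higher genes were Mc4r, a melanocortin receptor that also binds Lcn2 (1.23 ± 0.19 in WT, limma adjusted p = 0.00165), the IL1 receptor Il1r1 (0.72 ± 0.12 in WT, limma adjusted p = 0.00267, and 0.71 ± 0.15 in AcPbKO, limma adjusted p = 0.0102) and the acute phase inhibitor Serpina3n (0.70 ± 0.10 in WT, limma adjusted p = 0.00123). Timp1, an inhibitor of metalloproteinases, was higher in AcPbKO (1.84 ± 0.19, limma adjusted p = 0.000716). Vessel genes did not move in 1 direction: of 10 endothelium markers 4 were higher and 2 lower in WT, and 2 higher and 2 lower in AcPbKO.

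Markers of other cells that blood, bone or brain borders could bring were counted in the same way. Of 12 monocyte markers, 1 was higher in WT, fibronectin, Fn1 (0.32, limma adjusted p = 0.00614), and 2 in AcPbKO, Fn1 (0.51, limma adjusted p = 0.00696) and the proteoglycan Vcan (0.26, limma adjusted p = 0.0472). The monocyte sum was 6484 to 7517 normalized counts in the 6 controls and 7974 to 9648 in the 6 SD libraries, without overlap. Most of this sum was Fn1, at 4488 to 5474 in the controls and 6125 to 7728 in the SD libraries, and without Fn1 the sum was 1741 to 2043 and 1765 to 2550 and overlapped. Ccr2, a chemokine receptor of monocytes, was at 9.86 to 19.8 in the controls and 8.30 to 37.95 in the SD libraries. The part of monocytes in the levels of the members was not tested. Of 10 border macrophage markers, 2 were higher in WT and 1 in AcPbKO, with F13a1, a coagulation factor subunit, in both (0.47, limma adjusted p = 0.0317, and 0.68, limma adjusted p = 0.0266). Of 6 red blood cell markers 1 was higher in each genotype, Bpgm (0.22 and 0.26, limma adjusted p 0.0207 and 0.0172). Of the platelet markers 0 were higher, and 2 of 12 in WT and 1 of 11 in AcPbKO were lower, Itga2b, a platelet integrin, in both (-0.52 and -0.79, limma adjusted p 0.0217 and 0.0194).

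The 13 lymphocyte markers gave 0 calls in WT and 1 lower gene in AcPbKO, the B cell receptor component Cd79b (-1.07, limma adjusted p = 0.0443). Of 10 bone marrow and skull stroma markers, 1 was higher and 2 lower in WT, and 2 were higher and 1 lower in AcPbKO. Ibsp, a bone matrix protein, was higher in both (1.70, limma adjusted p = 0.049, and 1.71, limma adjusted p = 0.0179), and the collagen gene Col1a1 lower in both (-0.71 and -0.58, limma adjusted p 0.00689 and 0.0425). Col1a1 is also among the 10 meningeal fibroblast markers, of which 0 were higher, and 4 in WT and 2 in AcPbKO were lower. Of 10 choroid plexus markers 1 was higher in WT, Kl (0.56, limma adjusted p = 0.0315), and 0 were called in AcPbKO, where the median log2 fold change was 1.01 and, without SD-AcPbKO 04, 0.08. Of 12 cortical neuron markers 3 were higher and 2 lower in WT, and 3 higher and 1 lower in AcPbKO, led in both by the transcription factor Neurod6 (0.94 and 1.11, limma adjusted p 0.000189 and 0.00061). Between genotypes limma called 4 genes in undisturbed cortex and 3 after SD over the whole tables, none of them in these lists.

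Among the genes whose log2 levels followed Lcn2 most closely over the 12 libraries, among 16061 genes averaging 10 or more normalized counts, were C4a (Pearson r = 0.94), Tas1r3 (0.91), Clic1 (0.90) and Pdcd5 (0.87). Those closest to the sum of S100a8 and S100a9 were Chil3 (0.92), Ltf (0.87), Lcn2 (0.85), Ngp (0.83) and F5 (0.82). The second set leans on SD-AcPbKO 04, without which r was 0.76 for Chil3, 0.71 for Ltf, 0.81 for Lcn2, 0.59 for Ngp and 0.33 for F5. For these 4 genes of the first set r stayed at 0.80 to 0.92 without that library. The 12 points share the SD contrast and its depth, and the values are descriptions.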

How the data were processed

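Total RNA of somatosensory cortex was sequenced by the authors (stranded mRNA kit, paired-end reads), aligned with HISAT2 (version 2.2.1) to mm10 and normalized with DESeq2 (1.31.16). The counter is HTSeq in the methods and featureCounts in the submitters' processing notes, and its strand setting is not given in the sources used here. The deposited values are a signal, read counts divided by a size factor, in 5 tables of 6 libraries each, normalized separately. The authors' own fold change and p-value columns in these tables were not used.

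Reads were recovered by undoing the size factors: 100.0% of 732630 values lay within 0.01 of a whole read and 0 counts differed between tables. The main test was limma (3.58.1, R 4.3.3) with a variance trend on log2(normalized count + 1), over genes with at least 1 read, with Benjamini-Hochberg adjustment and a threshold of 0.05. A 6-library fit left 4 residual degrees of freedom. The pooled and interaction fits used 12 libraries normalized together by median of ratios (9 and 8 degrees of freedom). The plan named limma for normalized values, and edgeR (4.0.16) and DESeq2 (1.42.0) were run on recovered reads as alternatives, besides pseudocounts of 0.1 and 10, a mean of at least 10, a replicate block, all 12 libraries in 1 fit, a term for libraries with at least 1000 Xist reads, thinning to the smallest total (seed 1) and leaving out each library. A further 2 alternatives were chosen after seeing the data, the 8 libraries without Xist reads alone, and the Xist term without SD-AcPbKO 04.

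The 10 members and the 15 gene lists were chosen with earlier results of these data known. All members are named, and of other lists up to 3 genes per direction with the smallest adjusted p, and defining markers near 0. The likeness rule took 5 genes by Pearson r, of which 1 is not reported here. Genes named besides, such as those high or low in SD-AcPbKO 04 and single cytokines, were chosen after their values were seen.

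Labels give separate mice, and replicates of a group differed beyond sampling noise (chi-square per degree of freedom at least 6.35). Over 10 pairs of libraries with the same number, the correlation of deviations was -0.43 to 0.23, so numbers do not pair samples. Simulated data in which 200 genes were changed were used to test the fits. Positions came from GENCODE M21 (GRCm38) by symbol, promoters from RefSeq. Python 3.11.15, NumPy 2.4.6, pandas 2.3.3 and matplotlib 3.10.9 were used.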

Additional observations from a re-analysis of the deposited data

How the results depend on the processing

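The direction of the SD difference of Lcn2 and Csf3r was the same under every alternative in WT, in AcPbKO and pooled. Over the single genes reported, 548 values under an alternative kept direction and either kept their side of the threshold or had no adjusted p. Of the others, 72 lost and 27 gained the threshold, and 35 changed sign. Reads were few in most libraries for all members but Csf3r, and this depth limits their values, those of Lcn2 in the controls, SD-WT 02 and SD-AcPbKO 02 included.

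Of the 10 members, 4 passed in WT. This became 2 with DESeq2 (which gave no adjusted p for 7 of them), with all 12 libraries in 1 fit and after thinning, and 0 with the Xist term or the replicate block. In AcPbKO, 1 passed, against 2 with edgeR, DESeq2 or all 12 libraries in 1 fit and 0 with the Xist term or the replicate block. For SD-AcPbKO against CTL-WT, 3 passed, against 6 with edgeR or DESeq2, 1 with a pseudocount of 10 or after thinning, and 0 with the Xist term or the replicate block. Pooled over genotypes, 4 passed, against 8 with edgeR or DESeq2, 2 with a pseudocount of 10, the Xist term or thinning, and 1 in the libraries without Xist reads or with the Xist term and SD-AcPbKO 04 left out. The cause of these moves was not tested, except that the fits without Xist libraries and without single libraries hold fewer samples. The fits with the replicate block left fewer residual degrees of freedom. Over all genes, calls ran over the alternatives from 2699 to 6222 in WT, 3393 to 6485 in AcPbKO, 5916 to 8914 pooled and 3393 to 6008 for SD-AcPbKO against CTL-WT.

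The same-numbered libraries share only a number. The replicate block left 1 residual degree of freedom in each 6-library fit it was run on and called 0 genes there. Its 0 members in those fits therefore say nothing particular of the members. In the pooled fit it called 7907 genes. The undisturbed genotype comparison could not be blocked because its groups share only number 03.

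With each library left out in turn, the members called were 2 to 5 in WT, 0 to 5 in AcPbKO, 0 to 6 for SD-AcPbKO against CTL-WT and 3 to 8 pooled, and 0 in the genotype comparisons and the interaction. Estimates that changed sign in these fits ran, on the log2 scale, from -0.45 to 0.64 for Camp and from -0.38 to 1.18 for Retnlg in WT, and from -0.0625 to 2.36 for S100a8 in AcPbKO. Between genotypes after SD they ran from -0.51 to 1.95 for S100a8, -0.15 to 2.57 for S100a9 and -0.20 to 2.16 for Lcn2. In the interaction they ran from -1.58 to 0.85 for S100a8, -0.88 to 1.45 for Lcn2 and -0.10 to 0.10 for Csf3r.

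Other sign changes were in values that passed no test. In WT they were Camp with the replicate block (-0.58) and Retnlg with the Xist term (-0.34). In the interaction, S100a8 was at 0.15 with a pseudocount of 10, 0.57 with edgeR, 0.56 with DESeq2 and 0.43 with the replicate block. Lcn2 was at 0.37, 0.51, 0.47 and 0.82 in the same order and at 0.0124 after thinning, and Csf3r at 0.0121. Pooled, with the Xist term and without SD-AcPbKO 04, S100a9 was at -0.0299 and Retnlg at -0.34.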
